A study of Homo sapiens with 2 samples.

Results

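A set of 10 genes of iron uptake, storage, export and heme handling was followed after knockdown of the RNA helicase DDX5 in the human gastric cancer line HGC-27. The members are FTH1, FTL, NCOA4, TFRC, SLC11A2, SLC40A1, IREB2, ACO1, HMOX1 and SLC48A1. They were taken by name, through their Entrez numbers, from a table of 16021 genes and gene models. The control group carried a non-targeting shRNA and the other group an shRNA against DDX5, both from lentivirus in the same line. Puromycin was given to both from 48 h after transduction, and cells were collected 1 week later. Each group has 1 library, so no difference below has a replicate check, and no p-value or standard error is given. The number of shRNA sequences used, and whether the selected cells were a pool or 1 clone, is not given in the sources used here.

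Values are FPKM, that is, fragment numbers divided by transcript length and by sequencing depth, so levels can be compared between genes. Differences are given as the log2 ratio of FPKM + 1, DDX5 shRNA over non-targeting shRNA, and a fold is the ratio of the deposited FPKM. "At least 2-fold" means a log2 ratio of 1 or more, or -1 or less, among the 11413 genes whose mean over both libraries is 1 FPKM or higher. All 10 members passed that filter and none was listed at 0. DDX5 itself stood at 170.5 FPKM in the control library and at 50.78 FPKM in the knockdown library, a log2 ratio of -1.73. Steps between low FPKM values gave estimates of about 1.53e+07 and 1.5e+07 counted fragments. The mesenchymal marker VIM stood at 1583.62 and 1270.59 FPKM, whereas the epithelial markers EPCAM (0.04 and 0.39 FPKM), KRT18 (0.1 and 0.16 FPKM) and CDH1 (0.36 and 0.07 FPKM) were close to absent in this carcinoma line. The epithelial keratin KRT8 was present at 5.24 and 1.31 FPKM, a log2 ratio of -1.43. The 4 fibroblast markers examined (COL1A1, COL1A2, DCN and LUM) summed to 467.65 and 527.69 FPKM, but did not move together. DCN (68.13 and 140.68 FPKM, log2 ratio 1.04) and COL1A2 (2.52 and 6.02 FPKM, 0.996) were higher in the knockdown library. LUM was a little higher (111.96 and 120.49 FPKM) and COL1A1 a little lower (285.04 and 260.5 FPKM). The part of these markers in the results was not tested. Of the erythroid markers, ALAS2 and SLC4A1 were at or near 0 (0.04 and 0 FPKM, and 0.01 and 0 FPKM), while HBA1 stood at 91.49 and 73.1 FPKM and EPOR at 4.46 and 8.08 FPKM, and their part was not tested either.

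Cells take up transferrin-bound iron through the transferrin receptor, move it out of endosomes through a divalent metal transporter, store it in ferritin shells and release the excess through ferroportin. The iron regulatory proteins, encoded by ACO1 and IREB2, bind hairpins called iron-responsive elements when iron is scarce. Binding before the coding sequence blocks translation, as in ferritin and ferroportin mRNA, and binding after it protects the mRNA from decay, as in transferrin receptor mRNA. Heme is a further iron source: a transporter brings it out of endolysosomes and heme oxygenase opens the ring to free the metal.

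The hairpins that tie these mRNAs together are shown because they define the ferritin, ferroportin and transferrin receptor mRNAs that are compared below. The longest coding transcript of each member in GENCODE 29 was searched for a C, 5 bases, the loop letters CAGTGN and 5 bases able to pair with the first 5 (G with T allowed), on the transcript strand only. FTH1, FTL and SLC40A1 held 1 match each in the 5′ UTR and TFRC held 4 in the 3′ UTR. The other 6 members held no match to these letters. Among 11172 genes past the filter with a coding transcript, 1.58% held at least 1 match. Each sequence is 29 bases, in DNA letters, with the 6-base loop in capitals, and coordinates are on GRCh38.
FTH1, chr11:61967574-61967602, minus strand: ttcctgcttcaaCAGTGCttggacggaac
FTL, chr19:48965335-48965363, plus strand: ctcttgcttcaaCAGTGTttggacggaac
SLC40A1, chr2:189580661-189580689, minus strand: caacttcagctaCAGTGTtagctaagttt
TFRC match 1, chr3:196050979-196051007, minus strand: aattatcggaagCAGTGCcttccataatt
TFRC match 2, chr3:196050575-196050603, minus strand: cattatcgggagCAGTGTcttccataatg
TFRC match 3, chr3:196050510-196050538, minus strand: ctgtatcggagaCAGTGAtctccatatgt
TFRC match 4, chr3:196050463-196050491, minus strand: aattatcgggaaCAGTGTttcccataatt
The upper stem that closes each loop was fully paired in all 7, as the search required.

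**Figure D1:**
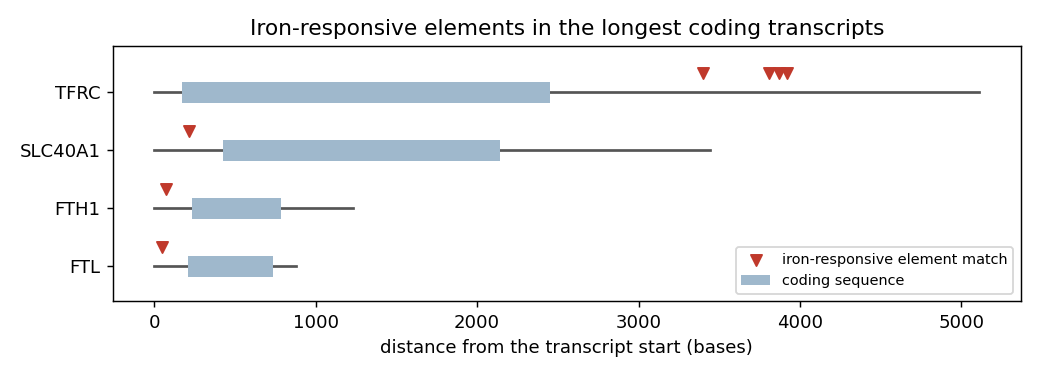
Positions of the iron-responsive element matches (triangles) along the longest coding transcripts of TFRC, SLC40A1, FTH1 and FTL, in bases from the transcript start, with the coding sequence as a bar and the UTRs as a line. The 3 single matches precede the coding sequence and the 4 TFRC matches follow it.

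Both ferritin mRNAs were higher in the knockdown library. FTH1 encodes the heavy chain, which oxidises iron as it enters the shell. FTH1 stood at 2258.48 FPKM with the non-targeting shRNA and at 4240.2 FPKM with the DDX5 shRNA, 1.88-fold higher and a log2 ratio of 0.91. It moved from the 31st to the 14th most abundant row of the table. FTL, the light chain that aids mineral formation, stood at 634.83 and 924.23 FPKM, 1.46-fold higher and a log2 ratio of 0.54. Heavy chain mRNA was therefore 3.56 times the light chain level in the control library and 4.59 times in the knockdown library. Together they made up 0.527% and 0.868% of total FPKM.

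Neither ferritin gene reached 2-fold. FTH1 ranked 624 and FTL 1697 from the highest of 11413 ratios. The most abundant mRNAs leaned the same way: the 137 genes whose mean was 500 FPKM or higher had a median log2 ratio of 0.22, and among them FTH1 ranked 4 from the highest and FTL 18. At a mean of 100 FPKM or higher the median was 0.037 over 755 genes, close to that of all genes (0.024), and FTH1 ranked 45 and FTL 105. Short mRNAs did too. Genes whose longest coding transcript is under 1000 bases had a median of 0.21 (386 genes), against 0.081 from 1000 to under 2000 bases (1901 genes), while the transcripts of FTL and FTH1 span 878 and 1229 bases. The part of abundance and length in the ferritin values was not tested.

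Ferritin genes have many processed copies, so read assignment matters. Of the 50-base windows of the FTH1 transcript, 39.8% also occur in at least 1 of 14 FTH1 pseudogenes, and 16.9% of the FTL windows occur in 2 FTL pseudogenes. The table has 0 rows named for those copies. FTH1 also lies across from BEST1, a chloride channel gene whose annotated exons on the opposite strand cover 71.6% of the FTH1 transcript. BEST1 was listed at 0.06 and 3.34 FPKM. The strand setting of the counting is not given in the sources used here, so reads of FTH1 and BEST1 cannot be told apart in that stretch. The BEST1 level was 0.00266% of the FTH1 level in the control library and 0.0788% in the knockdown library.

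NCOA4, the receptor that carries ferritin into autophagosomes so that its iron can be released, did not share the ferritin difference. NCOA4 stood at 64.88 FPKM in the control library and at 56.03 FPKM in the knockdown library, which is 86.4% of control (log2 ratio -0.21). It came next after FTH1 and FTL in abundance among the members in both libraries. Its ratio ranked 3425 from the lowest of 11413.

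**Figure D2:**
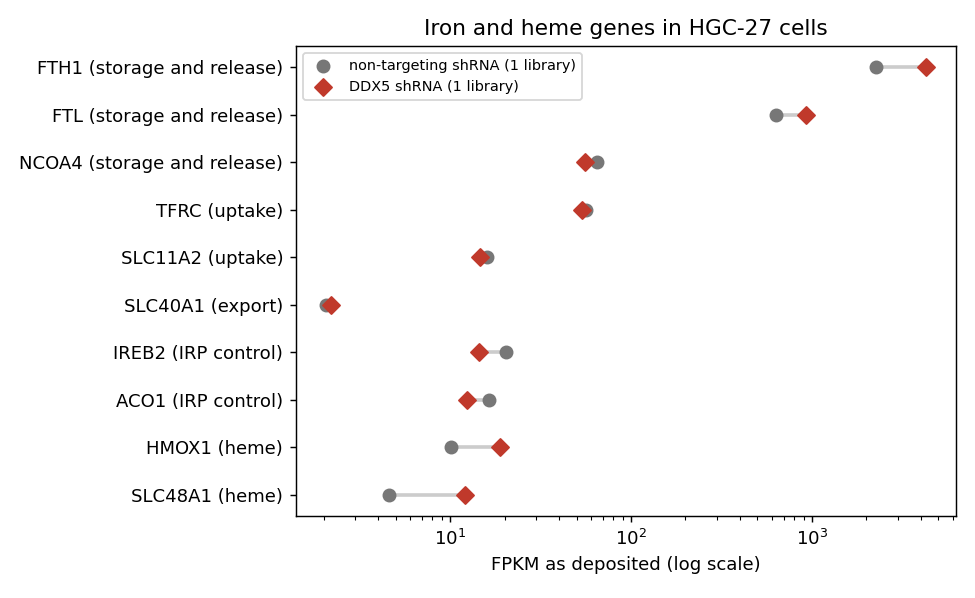
FPKM of the 10 genes (log axis) in the non-targeting library (grey circles) and the DDX5 shRNA library (red diamonds), 1 library each, grouped by role. FTH1, FTL, HMOX1 and SLC48A1 lie clearly to the right in the knockdown library, IREB2 and ACO1 to the left, and TFRC, SLC11A2 and SLC40A1 almost coincide.

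The uptake genes were nearly level between libraries. TFRC, which encodes transferrin receptor 1, stood at 56.13 FPKM in the control library and at 53.68 FPKM in the knockdown library, which is 95.6% of control (log2 ratio -0.06). SLC11A2, the divalent metal transporter DMT1, stood at 15.94 and 14.61 FPKM, which is 91.7% of control (log2 ratio -0.12). TFRC exceeded SLC11A2 3.52 times in the control library and 3.67 times in the knockdown library. FTH1 mRNA was 40.2 times the TFRC level in the control library and 79.0 times in the knockdown library, with TFRC itself nearly level.

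Export mRNA was scarce. SLC40A1 encodes ferroportin, the iron exporter of the cell surface. It was the least abundant member in both libraries, at 2.06 and 2.21 FPKM, and its log2 ratio was 0.07. These levels correspond to about 108 and 114 fragments. The 95% counting interval of the fold, from an exact binomial split of those estimates and covering counting error only, runs from 0.820 to 1.41. A difference in SLC40A1 was not detectable at this depth. When the libraries were brought to an equal total FPKM, its log2 ratio was -0.0092.

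Both iron regulatory protein genes were lower in the knockdown library. IREB2, whose product IRP2 is degraded when iron is plentiful, stood at 20.41 FPKM in the control library and at 14.51 FPKM in the knockdown library, which is 71.1% of control (log2 ratio -0.47). ACO1, whose product switches between cytosolic aconitase and the RNA-binding form IRP1, stood at 16.39 and 12.41 FPKM, which is 75.7% of control (log2 ratio -0.37). The IREB2 level was slightly above the ACO1 level in both libraries. Their log2 ratios ranked 1709 and 2208 from the lowest of 11413. Levels in bulk RNA do not tell fewer cells with a transcript from less transcript per cell, which holds for every member.

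The highest ratio of the set belonged to a heme gene. SLC48A1 encodes HRG1, which moves heme from endolysosomes to the cytosol. SLC48A1 stood at 4.6 FPKM in the control library and at 12.13 FPKM in the knockdown library, 2.64-fold higher and a log2 ratio of 1.23. It ranked 271 of 11413 ratios, with 2.37% of genes higher. About 212 and 548 fragments lie behind these values, with a 95% counting interval of the fold from 2.25 to 3.10. An opposite-strand exon of HDAC7, a histone deacetylase gene at 16 and 14.18 FPKM, covers 1.06% of the SLC48A1 transcript.

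HMOX1, the inducible heme oxygenase, stood at 10.13 FPKM in the control library and at 18.94 FPKM in the knockdown library, 1.87-fold higher and a log2 ratio of 0.84. With about 282 and 518 fragments, the 95% counting interval of the fold is 1.62 to 2.17. The constitutive heme oxygenase gene HMOX2 went the other way, at 20.54 and 13.78 FPKM and a log2 ratio of -0.54. HMOX1 was thus 0.493 times the HMOX2 level in the control library and 1.37 times in the knockdown library. The sum of both was close, 30.67 and 32.72 FPKM. In the order of the 10 members by level, HMOX1 moved from place 8 to place 5, past SLC11A2, ACO1 and IREB2.

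Of the 10 members, 1 was at least 2-fold higher (SLC48A1), beside 4.19% of all 11413 genes, and with a pseudocount of 5 FPKM it was 0. None was 2-fold lower (0 of 10), beside 2.26% of all genes. A log2 ratio above 0 was found for 5 of 10, beside 52% of all genes. With equal totals it was found for 4 of 10, beside 4942 of all 11413 genes. The median of the 10 was 0.0029, beside 0.024 over all genes. By role, both ferritin chains were above 0 and NCOA4, which acts on stored ferritin, below. Both heme genes were above 0, both iron regulatory protein genes and both uptake genes below, and ferroportin a little above (below 0 with equal totals). These counts lie near those of all genes.

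**Figure D3:**
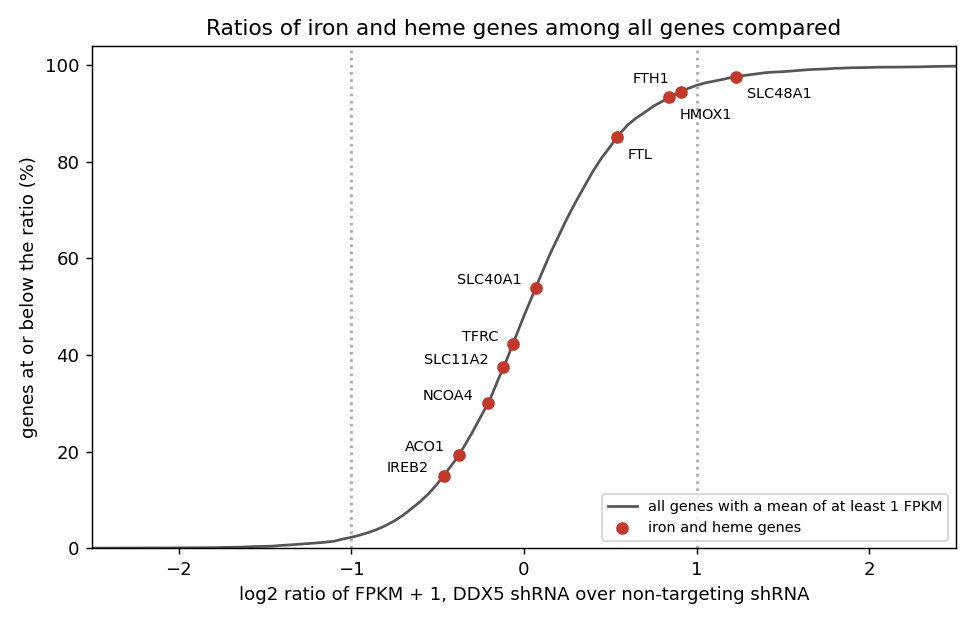
Cumulative share of the 11413 genes (vertical axis, percent) at or below each log2 ratio (horizontal axis), with the 10 iron and heme genes as points on the curve and dotted lines at -1 and 1. SLC48A1 is the member beyond 1, FTH1 and HMOX1 lie just inside it, and IREB2 and ACO1 are the lowest.

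The members that held a match in the search for iron-responsive elements had ratios from -0.06 to 0.91. Of those with a match before the coding sequence, FTH1 and FTL had log2 ratios of 0.91 and 0.54 and SLC40A1 one of 0.07. TFRC, with 4 matches after it, had a ratio of -0.06. Other forms of the element were not searched, so a member without a match is not shown to lack one. Of 4 more genes known for such elements, 2 passed the filter, both with ratios above 0, beside 52% of all genes. The position of the element was not read for these 2, so they are not placed with either group above. The kinase gene CDC42BPA stood at 6.25 and 9.07 FPKM (log2 ratio 0.47), and the phosphatase gene CDC14A at 5.36 and 6.31 FPKM (0.20). ALAS2 and EPAS1 were below the filter.

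Related genes were read in 13 lists, with 124 different genes analysed and 103 past the filter. Across them 4 (3.88%) lay beyond 2-fold on the higher side, beside 4.19% of all genes, and 1 (0.971%) on the lower side, beside 2.26%. Their median log2 ratio was 0.10 (-0.0057 with equal totals), beside 0.024 for all genes (-0.077 with equal totals). The lowest ratio of the 103 was that of an uptake gene. STEAP3, the endosomal reductase that prepares iron for SLC11A2, stood at 5.97 FPKM in the control library and at 1.64 FPKM in the knockdown library, 3.64-fold lower and a log2 ratio of -1.40. The other 7 uptake genes past the filter lay within 2-fold. SLC39A14, a ZIP transporter that also carries iron, stood at 28.94 and 56.39 FPKM (log2 ratio 0.94), and STEAP1 at 20.99 and 13.07 FPKM (-0.64).

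Among iron chaperones and ferritin turnover genes, 5 of 7 passed the filter. PCBP4, of the poly(rC)-binding family, was at least 2-fold higher, at 12.26 and 31.07 FPKM and a log2 ratio of 1.27. PCBP2, a chaperone that hands iron to ferritin, stood at 344.86 and 486.91 FPKM, a ratio of 0.50, and the autophagy receptor gene TAX1BP1 had a ratio of 0.34. The 4 genes of the ligase that removes IRP2 were all below 0, where 52% of all genes were above 0, with a median of -0.18. CUL1, its scaffold, had the lowest ratio of them at -0.45. FBXL5, the iron-sensing subunit (named after its value was seen), was nearly level at 8.39 and 8.26 FPKM (log2 ratio -0.02).

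Heme synthesis genes were 8 above 0 and 6 below among 14, beside 52% of all genes above 0. Their median log2 ratio was 0.12 (0.017 with equal totals), and none was 2-fold apart. UROS, the uroporphyrinogen synthase, stood at 22.76 and 41.68 FPKM (log2 ratio 0.85), the porphyrin transporter gene ABCB6 at 20.84 and 34.23 FPKM (0.69), and TMEM14C, which helps porphyrin into the mitochondrial matrix, at 98.7 and 153.17 FPKM (0.63). ALAS1, which sets the rate of heme synthesis outside red cells, stood at 19.49 and 16.67 FPKM (named after its value was seen). Of 9 heme breakdown and transport genes past the filter, 3 were above 0, beside 52% of all genes. BLVRB, a biliverdin reductase, had a ratio of 0.87 (50 and 92.26 FPKM), LRP1, the receptor for the heme carrier hemopexin, 0.93 (5.73 and 11.85 FPKM), and PGRMC1, a heme-binding membrane protein, -0.71 (179.64 and 109.62 FPKM). FLVCR1, known as a heme exporter, lay just inside the limit at 6.88 and 2.98 FPKM (log2 ratio -0.99), and passed it at -1.07 with equal totals (named after its value was seen).

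Of the mitochondrial iron and iron-sulfur cluster genes, 14 of 21 had ratios above 0, beside 52% of all genes, with a median of 0.16 and none 2-fold apart. With equal totals 12 of 21 were above 0, beside 4942 of all 11413 genes. The median was then 0.050, beside -0.077 for all genes. The scaffold gene ISCU stood at 23.91 and 43.35 FPKM (log2 ratio 0.83), the cochaperone gene HSCB at 4.17 and 8.45 FPKM (0.87), and BOLA3 at 156.29 and 98.64 FPKM (-0.66). In the cytosolic pathway the median was 0.10 over 11 genes (-0.013 with equal totals). BOLA2 was listed as at least 2-fold higher, at 14.03 and 32.39 FPKM, but its near-identical copy BOLA2B has the very same values, and the read-through row BOLA2-SMG1P6 went from 74.26 to 61.13 FPKM, so the division of reads among them is uncertain. NDOR1 and CIAO2A had ratios of -0.55 and -0.47.

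**Figure D4:**
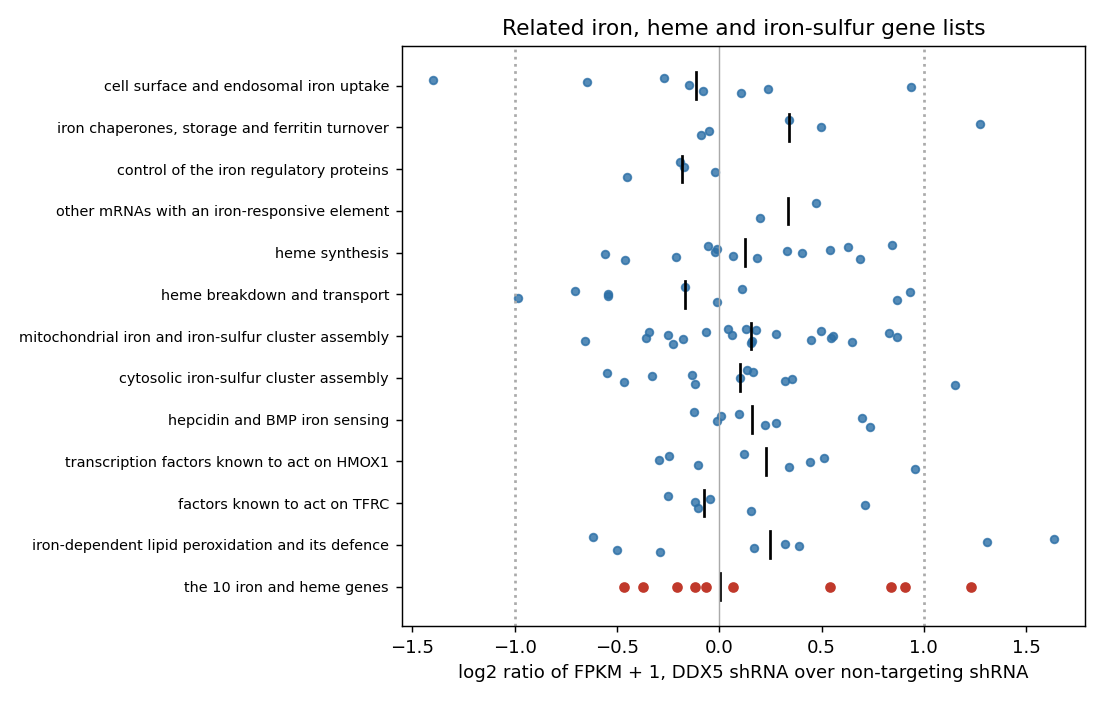
Log2 ratio of each gene past the filter (points) in 12 related lists and in the 10 iron and heme genes (red), with the list median as a black bar and dotted lines at -1 and 1. STEAP3 is the point furthest to the left and SLC7A11 the one furthest to the right.

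Factors known to act on HMOX1 and TFRC were also read. For HMOX1, the activator gene NFE2L2 and the repressor gene BACH1 (named after their values were seen) stood at 41.39 and 45.08 FPKM and at 4.66 and 6.17 FPKM, log2 ratios of 0.12 and 0.34. ATF4, which can also act on HMOX1, stood at 309.42 and 601.83 FPKM, a ratio of 0.96, MAFG, a small MAF partner, had a ratio of 0.51 and the heat shock factor gene HSF1 one of 0.44. For TFRC, the activator gene MYC had a ratio of 0.71, while HIF1A and its partner ARNT had ratios of -0.10 and 0.16. Promoter windows from 250 bases before to 50 after the start (RefSeq, GRCh38.p14) were matched for 8 of 10 members. FTH1 and HMOX1 had no window, so their promoters were not searched. The windows of the other members were searched for 4 motifs on both strands. The hypoxia element core ACGTG occurred in windows of TFRC and FTL, beside 21.4% of all 35116 windows. The antioxidant element core TGACNNNGC occurred in 1 window of NCOA4, beside 13.3%, and the CHOP and ATF4 element core TGATGNAA in 1 window of SLC11A2, beside 3.62%. The E-box CACGTG, found in 7.26% of all windows, matched none of the members' windows; it contains the ACGTG core.

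The members' ratios were also computed under other pseudocounts and scalings. SLC48A1 ranged from 0.84, with a pseudocount of 5 FPKM, to 1.38, so its place beyond 2-fold depends on that choice. FTH1 ranged from 0.79 to 0.91, FTL from 0.43 to 0.54 and HMOX1 from 0.66 to 0.90. IREB2 ranged from -0.57 to -0.38 and ACO1 from -0.48 to -0.30. Each of these kept its sign in all 5 alternatives that change a single gene's value. A pseudocount cannot change a sign, and the scalings move all genes by a similar small amount. The kept signs therefore add no support.

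**Figure D5:**
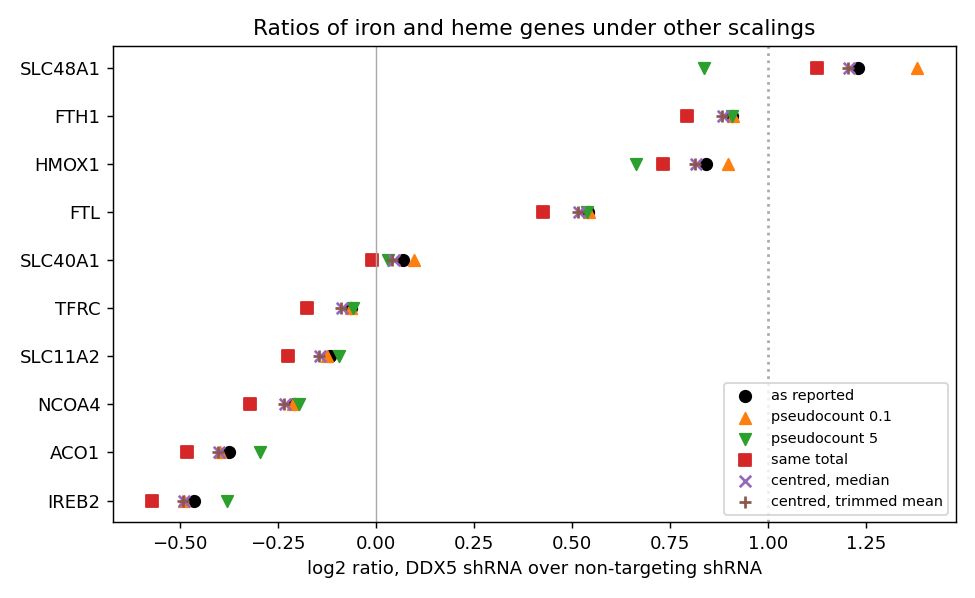
Log2 ratio of each of the 10 genes (horizontal axis) as reported (black circles) and under 5 alternatives: pseudocounts of 0.1 and 5 FPKM, equal totals, and centring on the trimmed mean or the median. SLC40A1 is the member whose sign changes, with equal totals.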

How the data were processed

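RNA-seq was done on 1 library per condition. The authors deposited 1 table of FPKM, per the file headers, with 2 decimals. Per the submitters' processing notes the tools included RSEM 1.2.8, HISAT and Bowtie2, with hg19 as the build, and their roles are not given. Columns were assigned by sample title. RefSeq names (GRCh38.p14) matched 15289 of 16021 rows. Log2 ratios used FPKM + 1, which understates differences of low genes. No test was run, since each group has 1 library. GENCODE 29 (GRCh38) supplied transcripts, overlaps and hairpins. Fragment numbers are approximate: low FPKM of genes with 1 transcript of 400 to 1200 bases, shortened by 150, were fitted to whole steps (70.7% of 75 and 69.2% of 65 genes within 0.15, with the step chosen for the best fit), and full lengths were then applied. The computation of ratios and calls was run on simulated data with planted differences. Their spread was smaller than that of the real ratios, so this checks the arithmetic and not the calls. Python 3.11.15, numpy 2.4.6, pandas 2.3.3 and scipy 1.17.1 were used.

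The members and lists were chosen with earlier results of these data known. Named genes are the members, DDX5, up to 3 genes per list with the largest absolute log2 ratio at a mean of 5 FPKM or more, and every list gene 2-fold apart; others are marked or serve a stated check, and 1 gene of the lists is not reported here. The alternatives tried were pseudocounts of 0.1 and 5 FPKM, no filter, a mean of 5 FPKM or more, equal total FPKM, and centring on a trimmed mean (30% off each end) or on the median.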

Additional observations from a re-analysis of the deposited data

How the results depend on the processing

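There were 50 values, for 10 members under the 5 alternatives that alter a ratio. All 50 differed from the reported ratio by less than the spread of ratios among genes of similar level, 0.437 to 0.522 for the members. Centring shifted every gene by only 0.024 or 0.027. The outcome was thus largely fixed in advance and adds no support. SLC48A1, the member called at least 2-fold higher, kept its sign, while SLC40A1 changed sign with equal totals. With a pseudocount of 5 FPKM the number of members at least 2-fold higher was 0 in place of 1 (SLC48A1), and over all genes 194 higher and 102 lower were past 2-fold, against 478 and 258. A pseudocount of 0.1 FPKM gave 743 and 390. At the same total FPKM, which put the median of all genes at -0.077, the split was 374 and 374. No member was at least 2-fold lower under any of the 7 alternatives. Adding the processed copies of FTH1 and FTL to their genes was planned and not run, because 0 rows carry those names. No paired analysis was possible because each group has 1 library. Depth limits SLC40A1 most, at about 108 and 114 fragments.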

Other observations

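Genes of iron-dependent lipid peroxidation and its defence held the highest related genes. SLC7A11, the cystine importer subunit, stood at 7.3 FPKM in the control library and at 24.84 FPKM in the knockdown library, 3.40-fold higher. Its partner SLC3A2 stood at 99.27 and 247.77 FPKM (log2 ratio 1.31). These were the 2 of 8 genes past the filter that were at least 2-fold higher, beside 4.19% of all genes, and VKORC1L1, a vitamin K reductase, had a log2 ratio of -0.62 (20.2 and 12.83 FPKM). GPX4, the lipid peroxide reductase (named after its value was seen), stood at 325.43 and 426.13 FPKM.

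Genes of hepcidin and BMP iron sensing had a median log2 ratio of 0.16 over 8 genes (0.068 with equal totals), none of them 2-fold apart. NEO1, a coreceptor of hemojuvelin, stood at 9.96 and 16.77 FPKM, and BMPR2 and SMAD5 had ratios of 0.28 and -0.13. HAMP, which encodes hepcidin, was listed at 0.29 and 0 FPKM (named after its value was seen). All 3 analysed genes of the export and ferroxidase list, HAMP among them, were below the filter.

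HBA1, an alpha globin gene, was listed at 91.49 and 73.1 FPKM, whereas its near-identical copy HBA2 was listed at 0 and 0.56 FPKM (both named after their values were seen).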
